A study of Homo sapiens with 26 samples.

Results

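Diffuse large B-cell lymphoma (DLBCL) falls into an activated B-cell (ABC) type and a germinal centre B-cell (GCB) type, and this comparison sets 4 ABC cell lines (HBL-1, OCI-Ly3, RIVA and U2932) against 8 GCB cell lines (DB, FARAGE, NU-DHL-1, OCI-Ly7, OCI-Ly19, SU-DHL-4, SU-DHL-5 and SU-DHL-8). The lines were chosen by their published cell of origin, which the sample labels do not give and which differs between sources for FARAGE, and these 12 lines are part of 26 in all. NU-DUL-1 and MC-116, an undifferentiated lymphoma line analysed with the DLBCL lines, were left out of the test and placed afterwards, and the remaining 12 lines are of the multiple myeloma (MM) group. The published classes rest largely on the expression of genes such as IRF4 and MME, so differences in these genes check the classes and are not independent of them.

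B cells pass through the germinal centre, where BCL6 holds them in a dividing state while their antibody genes mutate, and they leave it as memory cells or as plasma cells under the control of IRF4 and PRDM1. GCB lymphomas keep much of the germinal centre programme. ABC lymphomas resemble cells that have begun to leave, and they are known for chronic signalling from the B-cell receptor and MYD88 to the transcription factor NF-κB and through STAT3.

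Untreated cells in exponential growth were measured on 1 Affymetrix array per line, together with the response of each line to cyclophosphamide, doxorubicin and vincristine. A cell line is therefore the replicate and was derived from 1 patient tumour, and with 1 array each the precision depends on how many lines there are. The 12 lines grew in RPMI with fetal bovine serum, except OCI-Ly3, an ABC line, which grew in IMDM with 20% human serum and 2-mercaptoethanol. The medium of OCI-Ly3 and its own biology cannot be told apart. Fetal bovine serum was at 20% in DB and SU-DHL-5, GCB lines from DSMZ, and at 10% in the other RPMI lines. SU-DHL-8, a GCB line, had L-glutamine added. All 4 ABC lines and 4 GCB lines (FARAGE, OCI-Ly7, OCI-Ly19 and SU-DHL-8) came from the same source and the other 4 GCB lines from DSMZ.

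Expression is given as log2 values, so that a difference of 1 is a doubling. The array medians lay between 5.65 and 5.72, and values below about this level are dim. A gene was called at an adjusted p under 0.05 (limma, Benjamini-Hochberg over all probe-sets) and is represented by its most variable probe-set over the 14 DLBCL-group lines. Correlations between the profiles of the 14 lines ran from 0.901 to 0.961 across probe-sets, and the median was 0.936 within the ABC lines, 0.935 within the GCB lines and 0.932 between them. The lists of T-cell, NK-cell, myeloid and stromal markers had median log2 differences from −0.04 to 0.06 and 0 called members by limma. At an unadjusted p under 0.05, 2 of 10 NK-cell markers and 1 of 9 myeloid markers were on the lower side and 1 of 12 stromal markers on the higher side, and none of 13 T-cell markers on either, where 3.82% of all genes were on the lower and 4.09% on the higher side. In NKG7, a granule protein of NK cells, all ABC lines (4.53 to 4.84) lay below all GCB lines (4.88 to 6.13), and its adjusted p was 0.680.

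The 4 marker genes of the classes followed the labels in most lines but not in all. IRF4, a transcription factor of activated B cells and plasma cells, had log2 levels of 11.54 in HBL-1, 12.54 in OCI-Ly3, 11.94 in RIVA and 11.52 in U2932, and of 5.44 to 11.63 (median 9.07) in the GCB lines. Only SU-DHL-8, at 11.63, reached the range of the ABC lines, and DB, SU-DHL-4 and SU-DHL-5 lay below 6. The log2 difference was 3.47 (standard error 1.18, adjusted p = 0.57 from limma). DB, SU-DHL-4 and SU-DHL-5 came from DSMZ, and within the source of the ABC lines the difference was only 1.42. The GCB lines of that source had a mean of 10.46 and those from DSMZ a mean of 6.37. A second probe-set of IRF4, with group means of 8.67 and 6.48, had no overlap between the groups but did not pass either (adjusted p = 0.363). Its difference was 2.18 in all lines and 1.29 within the source of the ABC lines.

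BATF, a partner of IRF4 on DNA, was at 11.16, 11.70, 9.50 and 8.89 in HBL-1, OCI-Ly3, RIVA and U2932 and at 6.64 to 10.19 (median 7.23) in the GCB lines. FARAGE alone gave the overlap, since the next GCB line was at 7.70. The log2 difference was 2.79 (standard error 0.69, adjusted p = 0.359).

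MME, which encodes the germinal centre surface protein CD10, was at 3.52, 3.7 and 5.17 in HBL-1, OCI-Ly3 and RIVA but at 8.33 in U2932. The GCB lines ranged from 4.28 to 10.24 (median 8.89), and NU-DHL-1 (4.28) and FARAGE (5.57) were the low ones. LMO2, a germinal centre transcription cofactor, was at 4.93, 4.93, 5.32 and 8.78 in the ABC lines, U2932 again being the high one, and at 4.67 to 12.35 (median 7.42) in the GCB lines. The low GCB lines were SU-DHL-8 (4.67) and OCI-Ly7 (5.33), at about the level of HBL-1, OCI-Ly3 and RIVA. By a second, dimmer probe-set of LMO2 U2932 did not stand apart, at 4.59 where the other ABC lines were at 4.13 to 4.48. Neither MME (log2 difference −2.82, standard error 1.20) nor LMO2 (−1.73, standard error 1.28) passed, with adjusted p of 0.697 and 0.837.

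U2932 thus carried MME, and LMO2 by its representative probe-set, at levels that the other ABC lines lacked. FARAGE reached the range of the ABC lines for BATF, and SU-DHL-8 reached it for IRF4. IRF4 was also at 8.67 to 10.50 in NU-DHL-1, FARAGE, OCI-Ly7 and OCI-Ly19, below its range in the ABC lines. NU-DHL-1 and FARAGE were low for MME, and SU-DHL-8 and OCI-Ly7 for LMO2. IRF4, BATF, MME and LMO2 were not called in any of the 12 fits that left out 1 line. Some results below are also given without a line that stood apart in its group. Such a line was picked by the same values, so the counts and p values without it are descriptions.

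Over all probe-sets the groups differed in few genes. Of 54613 probe-sets 13 were called (0.0238%), 9 of them higher (0.0165%) and 4 lower (0.00732%) in the ABC lines, and 3743 had an unadjusted p under 0.05. By representative probe-set 7 of 19775 genes with a symbol were called (0.0354%). In all 13 called probe-sets every ABC line lay on one side of every GCB line. Leaving out SU-DHL-5 left 4 calls, while leaving out U2932, HBL-1 or OCI-Ly3 gave 27, 23 or 20, and in each of these last 3 cases 10 of the 13 calls remained. Within the 8 lines of the common source limma called 0, with 3103 at an unadjusted p under 0.05, although the called genes differed there by about as much as in all 12 lines. With the source as a term in the fit 1 probe-set, that of PLBD1, was called.

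**Figure D1:**
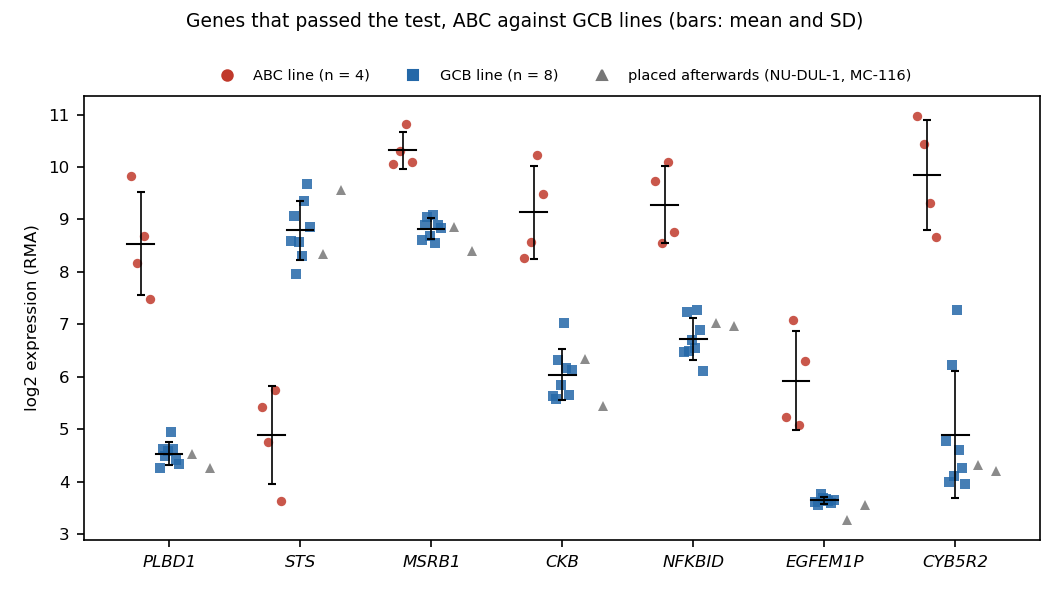
Log2 expression of the 7 genes that passed the test. Each point is a cell line, with ABC lines as circles, GCB lines as squares and the lines placed afterwards as triangles, and bars give the mean and SD of a group. For every gene the ABC and GCB lines do not overlap, and NU-DUL-1 and MC-116 lie on the side of the GCB lines.

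PLBD1, which encodes a phospholipase B-like protein, gave the smallest p. Its log2 levels were 9.82 in HBL-1, 8.17 in OCI-Ly3, 8.68 in RIVA and 7.48 in U2932, against 4.26 to 4.94 (median 4.54) in the GCB lines. All GCB lines were thus dim and close together, while the ABC lines spread over more than 2 log2 units. The difference was 4.00 (standard error 0.33, adjusted p = 0.00239), it was 3.91 within the common source, and the gene was called with any 1 line left out.

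STS, the enzyme that removes sulfate from steroids, was the gene most clearly lower in the ABC lines. It was at 5.42, 4.76, 5.74 and 3.62 in HBL-1, OCI-Ly3, RIVA and U2932 and at 7.96 to 9.67 (median 8.71) in the GCB lines, a log2 difference of −3.91 (standard error 0.40, adjusted p = 0.00838). Of its 4 probe-sets 3 were called and in all 4 the groups did not overlap, the fourth having an adjusted p of 0.0645. STS was called without any 1 of the lines.

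MSRB1, a selenoprotein that repairs oxidised methionine, differed less but was even within both groups. It was at 10.05, 10.30, 10.83 and 10.09 in the ABC lines and at 8.55 to 9.08 (median 8.86) in the GCB lines. The difference was 1.49 (standard error 0.16, adjusted p = 0.00861), and this gene too was called with any 1 line left out.

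CKB, the brain-type creatine kinase that buffers ATP, was at 8.27, 8.57, 10.22 and 9.49 in the ABC lines and at 5.57 to 7.02 (median 5.98) in the GCB lines. RIVA had the highest level and OCI-Ly19 the highest of the GCB lines. The log2 difference was 3.1 (standard error 0.36, adjusted p = 0.0156).

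NFKBID, a nuclear member of the IκB family that modulates NF-κB, was the called member of the NF-κB list. It was at 9.73, 8.56, 10.09 and 8.76 in HBL-1, OCI-Ly3, RIVA and U2932 and at 6.10 to 7.27 (median 6.62) in the GCB lines. The highest GCB lines were SU-DHL-4 and FARAGE, at 7.27 and 7.24, and they stayed below the lowest ABC line. The difference was 2.57 (standard error 0.30, a 5.94-fold change, adjusted p = 0.0156), with adjusted p up to 0.0511 when 1 line was left out.

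CYB5R2, a cytochrome b5 reductase and the called member of the activated B-cell list, had the largest difference of the called genes. It was at 10.97, 10.44, 9.31 and 8.66 in HBL-1, OCI-Ly3, RIVA and U2932, against 3.95 to 7.27 (median 4.43) in the GCB lines, where OCI-Ly19 and NU-DHL-1 (6.22) stood above the rest. The log2 difference of 4.95 (standard error 0.66, adjusted p = 0.0347) passed in 3 of the 12 fits that left out a line, with an adjusted p up to 0.101. EGFEM1P, a transcribed pseudogene, was at 5.24, 7.08, 5.07 and 6.30 in the ABC lines and at 3.56 to 3.77 in the GCB lines, near the lowest values of the arrays. Its difference of 2.28 (standard error 0.30, adjusted p = 0.0324) likewise passed in 3 of the 12 fits.

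AMOTL1, an angiomotin family protein of cell junctions, and BCAS4 were called by a probe-set other than the representative one. The called probe-set of AMOTL1 was at 6.57, 6.66, 7.6 and 7.47 in the ABC lines and at 4.59 to 5.76 in the GCB lines (log2 difference 2.16, adjusted p = 0.0156), and the representative one had a difference of 2.23 and an adjusted p of 0.0766. That of BCAS4 was at 7.75, 8.34, 7.49 and 8.97 in the ABC lines and at 9.79 to 10.55 in the GCB lines (−2.07, adjusted p = 0.0156), and the representative one had −2.81 and 0.117. Another 2 called probe-sets, both higher in the ABC lines, map to no gene symbol.

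Genes just outside the threshold included ELOVL7, a fatty acid elongase, at 10.53, 7.95, 7.07 and 6.80 in the ABC lines and 3.59 to 4.87 in the GCB lines (adjusted p = 0.0613), and SPIB. SPIB, an ETS transcription factor of B cells, was at 9.57, 10.18, 10.14 and 9.16 in HBL-1, OCI-Ly3, RIVA and U2932 and at 4.87 to 8.44 (median 6.64) in the GCB lines. NU-DHL-1 held the highest GCB value. The log2 difference of SPIB was 3.09 (standard error 0.48, adjusted p = 0.0925), and it was called without DB or without NU-DHL-1. A second probe-set of SPIB overlapped between the groups, with SU-DHL-4 (11.13) above U2932 (11.04), a difference of 1.99 and an adjusted p of 0.524.

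The genes with a symbol had a median log2 difference of −0.03, and 44.2% of them had a higher mean in the ABC lines. In 0.425% of them all ABC lines lay above all GCB lines and in 0.379% below. An unadjusted p under 0.05 was reached by 4.09% on the higher side and by 3.82% on the lower side. The gene lists below are read beside these shares. Their members were drawn up from textbook knowledge with earlier results of these data known, so their counts are descriptions. The activated B-cell and germinal centre lists hold marker genes of the classes, CYB5R2 among them. The direction of these genes follows in part from how the lines were grouped and is not independent of it.

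Activated B-cell markers had higher means in the ABC lines throughout. All 27 measured had a positive difference, with a median of 1.95, and 1 (CYB5R2) was called. In 5 of the 27 (18.5%) all ABC lines lay above all GCB lines, namely CYB5R2, SPIB, PIM1, PIM2 and CREB3L2, and 11 had an unadjusted p under 0.05. Without U2932 the median was 2.46 and 8 of the 27 did not overlap, where 1.10% of all genes lay on that side.

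PIM1, a kinase that promotes survival and is induced by STAT3 and NF-κB, was at 11.69, 11.01, 10.20 and 8.95 in HBL-1, OCI-Ly3, RIVA and U2932 and at 7.29 to 8.92 (median 7.80) in the GCB lines. U2932 was barely above SU-DHL-4, the highest GCB line. The log2 difference was 2.50 (standard error 0.46, adjusted p = 0.179). PIM1 passed in 1 of the 12 fits that left out a line, that without U2932 (difference 3.0, adjusted p = 0.0346). CREB3L2, a transcription factor of the secretory pathway, was at 9.84, 10.13, 9.94 and 9.07 in the ABC lines and at 3.64 to 9.02 (median 5.66) in the GCB lines. OCI-Ly7 was the high GCB line, and the difference of 4.01 (standard error 0.85) had an adjusted p of 0.260.

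The ABC lines did not form a single pattern within this list. CCND2, a D-type cyclin that drives entry into the cell cycle, was at 13.77 in HBL-1 and 12.89 in OCI-Ly3 but at 3.9 in RIVA and 3.89 in U2932, which was no higher than the GCB range of 3.59 to 5.80. CD44, an adhesion receptor for hyaluronan, was at 12.10 and 12.77 in HBL-1 and OCI-Ly3 and at 9.03 and 8.99 in RIVA and U2932, inside a GCB range of 3.21 to 11.37. FOXP1, a transcription factor used as a marker of the ABC type, was at 10.57 to 11.82 in the ABC lines and at 9.60 to 11.01 in 7 of the GCB lines, with FARAGE apart at 3.95 (log2 difference 1.95, adjusted p = 0.791).

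**Figure D2:**
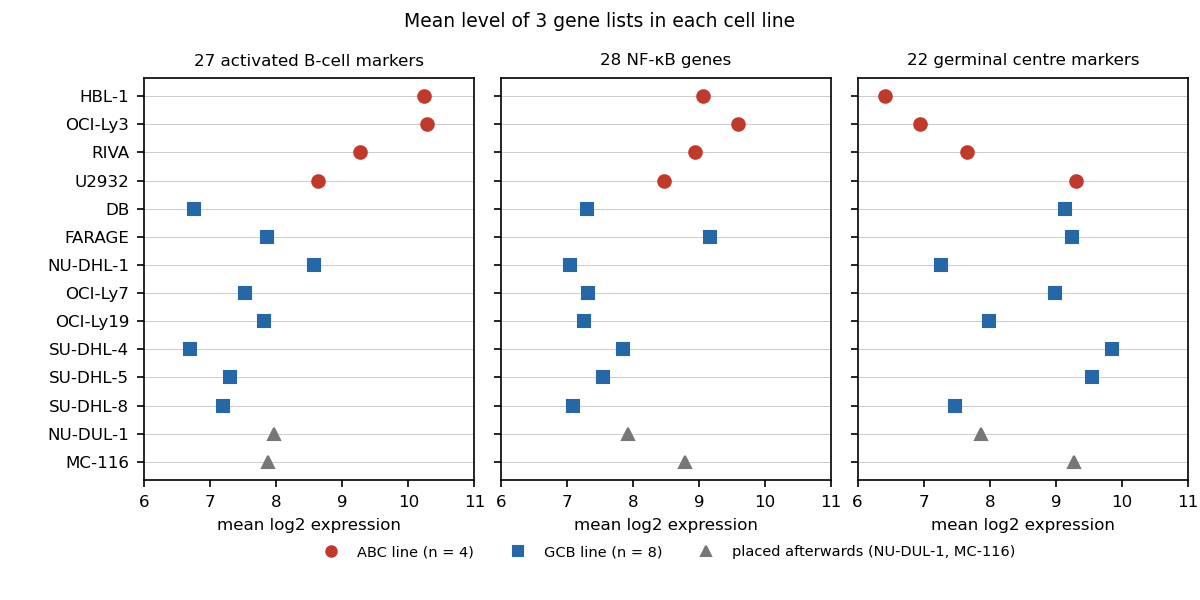
Mean log2 expression of the members of 3 gene lists in each line, with ABC lines as circles, GCB lines as squares and the lines placed afterwards as triangles. U2932 lies at the level of the GCB lines for germinal centre markers (9.30), and FARAGE at that of the ABC lines for NF-κB genes (9.17).

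NF-κB subunits and targets also had higher means in the ABC lines, together with FARAGE. Of 28 measured 26 had a positive difference, with a median of 1.25, 1 (NFKBID) was called, 3 (10.7%) lay above all GCB lines in all ABC lines, and 12 had an unadjusted p under 0.05. The mean level of the list was 9.06 in HBL-1, 9.59 in OCI-Ly3, 8.94 in RIVA and 8.47 in U2932. It was 9.17 in FARAGE and 7.05 to 7.85 in the other 7 GCB lines. Without FARAGE the median was 1.6 and 7 of the 28 did not overlap, where 0.622% of all genes lay on that side, and without OCI-Ly3 the median fell to 0.82.

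CD83, a surface protein of activated B cells, was at 11.21, 12.58, 12.41 and 11.62 in HBL-1, OCI-Ly3, RIVA and U2932 and at 7.24 to 11.01 (median 8.57) in the GCB lines. FARAGE was the GCB line at 11.01 and the next was at 9.76, and the difference of 3.05 (standard error 0.57) had an adjusted p of 0.179, or 0.0323 without FARAGE. NFKBIZ, another nuclear IκB protein, was at 12.29, 11.77, 11.93 and 10.16 in the ABC lines and at 5.73 to 10.05 (median 8.63) in the GCB lines, again with FARAGE as the highest (log2 difference 3.05, standard error 0.70, adjusted p = 0.323).

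BCL2A1, an NF-κB target that blocks apoptosis, was at 11.05, 12.28, 11.13 and 12.23 in the ABC lines. In the GCB lines it ranged from 4.18 to 12.52 (median 7.41), and FARAGE exceeded every ABC line. NFKBIA, the inhibitor that NF-κB induces to limit itself, was at 9.65 to 12.29 in the ABC lines and at 11.68 in FARAGE, against 9.01 to 10.48 in the other GCB lines. TNFAIP3, a deubiquitinase that limits NF-κB, was at 10.21, 10.07 and 9.61 in FARAGE, SU-DHL-8 and OCI-Ly19, inside the ABC range of 7.94 to 10.78. None of NFKBIZ, BCL2A1, NFKBIA and TNFAIP3 passed.

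The promoters of 4 of these genes are shown since they carry, or lack, the consensus motif of NF-κB, a site of 10 bases that NF-κB dimers bind. They are the 250 bases before the RefSeq gene start on GRCh38.p14, written 5′ to 3′ on the strand of the gene, with motif matches on either strand in capitals. NFKBID (chr19:35902304-35902553, minus strand) and MSRB1 (chr16:1943200-1943449, minus strand) were called, and NFKBIZ (chr3:101827740-101827989, plus strand) and SPIB (chr19:50418688-50418937, plus strand) did not overlap between the groups by their representative probe-sets.
NFKBID: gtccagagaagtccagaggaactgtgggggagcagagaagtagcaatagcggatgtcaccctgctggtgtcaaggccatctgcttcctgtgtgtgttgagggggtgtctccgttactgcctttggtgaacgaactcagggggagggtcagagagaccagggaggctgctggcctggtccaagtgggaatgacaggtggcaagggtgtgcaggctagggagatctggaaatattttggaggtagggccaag
NFKBIZ: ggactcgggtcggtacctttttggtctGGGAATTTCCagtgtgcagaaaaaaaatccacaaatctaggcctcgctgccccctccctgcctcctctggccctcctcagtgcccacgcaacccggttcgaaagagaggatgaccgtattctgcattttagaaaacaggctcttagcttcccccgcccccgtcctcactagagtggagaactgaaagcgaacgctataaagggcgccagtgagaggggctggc
SPIB: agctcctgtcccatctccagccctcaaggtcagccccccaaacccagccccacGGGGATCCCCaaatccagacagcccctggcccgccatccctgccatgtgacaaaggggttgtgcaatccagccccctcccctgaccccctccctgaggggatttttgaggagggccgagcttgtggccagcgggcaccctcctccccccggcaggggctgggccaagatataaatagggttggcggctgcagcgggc
MSRB1: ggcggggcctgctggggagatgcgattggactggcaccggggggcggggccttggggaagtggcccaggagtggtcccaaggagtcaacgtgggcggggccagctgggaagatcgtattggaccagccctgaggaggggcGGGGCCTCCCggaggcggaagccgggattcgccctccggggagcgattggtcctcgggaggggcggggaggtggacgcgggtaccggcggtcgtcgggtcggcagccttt
NFKBIZ, SPIB and MSRB1 each had 1 match and NFKBID had none in this window. Of the 28 NF-κB genes 21 had a promoter in the RefSeq table and 10 of these held the motif (47.6%), against 9.57% of all 27305 promoters in it. The list was drawn up from subunits and targets of NF-κB, so this share follows in part from how it was made. It says nothing on ABC against GCB lines. Of the activated B-cell markers 2 of 21 held it (9.52%) and of the germinal centre markers 2 of 19 (10.5%). A match is a description of the sequence and does not show binding.

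Genes of the JAK-STAT3 pathway included 3 of 21 (14.3%) that did not overlap, namely PIM1, IL10RA and SOCS3. The median difference was 0.50 and 0 were called by limma. At an unadjusted p under 0.05, 4 were on the higher side and 1 on the lower. The mean level of the list overlapped, at 6.80 to 8.01 in the ABC lines and 6.03 to 7.73 in the GCB lines. FARAGE (7.73) lay above HBL-1 (7.37), RIVA (6.80) and U2932 (7.40). IL10RA, the receptor chain for interleukin 10, was at 10.16, 12.06, 10.37 and 10.48 in the ABC lines and at 4.78 to 9.92 (median 8.31) in the GCB lines. SOCS3, a feedback inhibitor of STAT3 signalling, was at 8.23 in OCI-Ly3 and at 4.98, 4.14 and 5.67 in HBL-1, RIVA and U2932, while the GCB lines lay between 3.23 and 3.66. The differences were 2.64 and 2.37, with adjusted p of 0.557 and 0.324, and the probe-set of SOCS3 with the highest mean had a difference of −0.05.

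Germinal centre markers had lower means in the ABC lines in 18 of 22 cases, with a median of −0.74, 5 of them at an unadjusted p under 0.05, and with 0 called by limma and 0 without overlap. The mean level of the list was 6.41 in HBL-1, 6.94 in OCI-Ly3, 7.66 in RIVA and 9.30 in U2932, and 7.26 to 9.85 in the GCB lines. NU-DHL-1 (7.26) and SU-DHL-8 (7.48) were the low GCB lines and U2932 was within the upper range of the GCB lines. Without U2932 the median was −1.18.

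SSBP2, a DNA binding protein, had the smallest p of this list and separated HBL-1 (3.46) and OCI-Ly3 (5.23) from RIVA (9.40), U2932 (10.33) and the GCB lines (9.32 to 11.45). GCSAM, an adaptor of germinal centre B cells, was at 4.90, 5.29, 6.70 and 8.60 in the ABC lines and at 7.98 to 10.06 in 7 GCB lines, with NU-DHL-1 apart at 5.13. SERPINA9, a protease inhibitor of germinal centre B cells, was at 10.47 in U2932, and 10.46 in SU-DHL-4, the highest GCB line, and at 6.85 to 7.01 in the other ABC lines.

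BCL6, the repressor that defines the germinal centre stage, did not separate the groups. It was at 10.38, 11.22, 11.09 and 12.53 in the ABC lines and at 5.74 to 12.89 (median 12.29) in the GCB lines, with a difference of 0.51 (standard error 1.27, adjusted p = 0.956). The low values were those of SU-DHL-8 (5.74) and NU-DHL-1 (8.22), and without SU-DHL-8 the difference was −0.22.

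Plasma cell genes had a median difference of 0.49 over 18 measured, with 13 positive, 5 at an unadjusted p under 0.05 and 0 called by limma. SEC11C, a subunit of the signal peptidase, was the 1 without overlap, at 6.79, 8.63, 8.17 and 10.70 in the ABC lines and 4.95 to 6.62 in the GCB lines (log2 difference 2.66, adjusted p = 0.301). PRDM1, which drives plasma cell differentiation, reached 10.86 in OCI-Ly3, near the mean of 10.68 of the MM lines, and was at 6.57, 6.07 and 7.98 in the other ABC lines and 4.01 to 7.87 in the GCB lines. SLAMF7, a surface receptor of plasma cells, was at 7.31 to 11.01 in the ABC lines and at 10.97 in FARAGE, against 4.21 to 5.48 in the other GCB lines. Its adjusted p was 0.520, and 0.0285 without FARAGE, which was left out because of this value.

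Interferon-stimulated genes had a median of 0.85 over 42 measured, and this rested on HBL-1. The mean level of the list was 9.82 in HBL-1, while the other ABC lines (6.24 to 7.21) lay at the level of the GCB lines (6.32 to 7.36). Without HBL-1 the median was −0.19. MX2, an interferon-induced GTPase and the member of smallest p, was at 10.48, 9.25, 10.24 and 9.76 in the ABC lines and at 5.82 to 10.38 in the GCB lines (adjusted p = 0.620).

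The genes of apoptosis control were examined by name. BCL2, which blocks mitochondrial apoptosis, was at 10.50, 10.81, 12.47 and 12.13 in the ABC lines, while the GCB lines ranged from 4.03 to 10.91 (median 7.95). OCI-Ly7, SU-DHL-5 and SU-DHL-4 were near the lowest values of the arrays at 4.03, 4.22 and 4.30, and the difference of 4.00 (standard error 1.46) had an adjusted p of 0.614. The differences of MCL1, BCL2L1 and BCL2L2, which also protect cells, were 0.95, 0.68 and −0.78, with adjusted p from 0.786 to 0.842. PMAIP1, which encodes the pro-apoptotic protein NOXA, did not overlap, at 11.95, 12.53, 12.47 and 13.06 in the ABC lines and 7.75 to 10.99 in the GCB lines (log2 difference 2.74, standard error 0.56, adjusted p = 0.219).

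**Figure D3:**
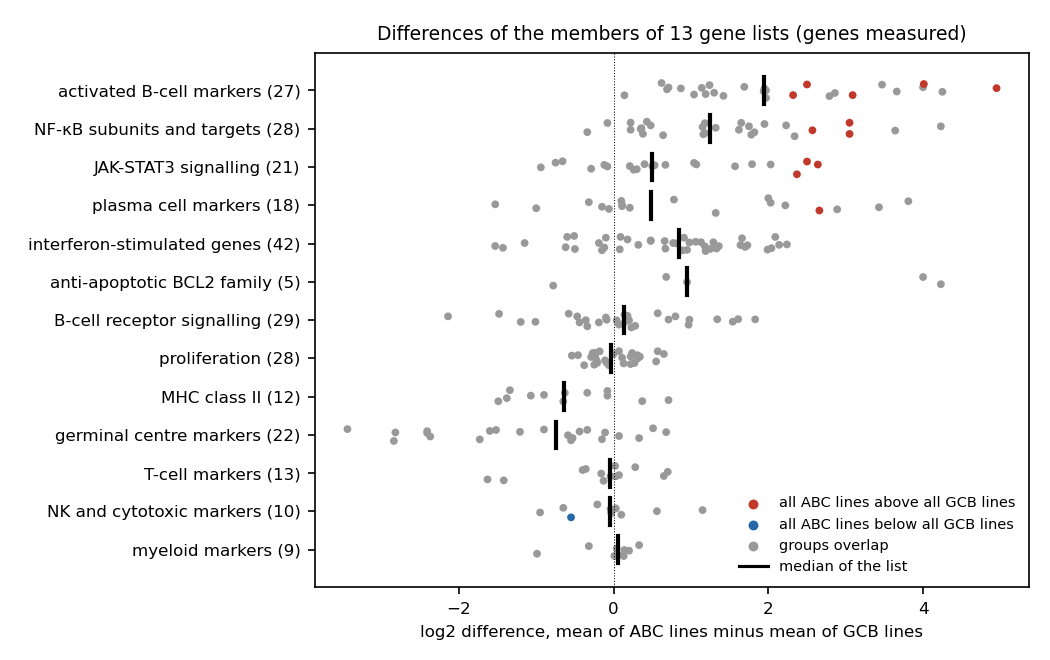
Log2 difference, mean of the ABC lines minus mean of the GCB lines, for each member of 13 gene lists, with the number measured in parentheses and the median as a bar. Activated B-cell markers (median 1.95) and NF-κB genes (1.25) lie to the right, and germinal centre markers (−0.74) and MHC class II genes (−0.64) to the left.

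None of the other lists held a called gene by limma. MHC class II genes, which present antigen to helper T cells, had lower means in 10 of 12 cases with a median of −0.64, none at an unadjusted p under 0.05. The mean level of the list was 7.11 in DB and 7.05 in FARAGE, below the ABC lines (7.85 to 8.79). The other GCB lines lay above them, at 9.06 to 10.44. HLA-DRA was among the members with a higher mean in the ABC lines. They were at 11.56 to 13.48 for it, where DB and FARAGE were low (8.34 and 5.25). The medians of the lists for B-cell receptor signalling (0.14), Toll-like receptor and MYD88 signalling (0.05), PI3K signalling (−0.12), proliferation (−0.03), cyclins and CDK inhibitors (0.01) and drug targets and drug handling (0.07) were close to that of all genes.

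In these lists the member of smallest p had an adjusted p of 0.420 or more in each case that follows. DOK3, an adaptor that restrains B-cell receptor signalling, had a difference of −2.14 and was at 4.43 in OCI-Ly3 against 7.99 to 9.53 in the other ABC lines. CD180, a Toll-like receptor relative, had −1.67, and PIK3CG, a catalytic PI3K subunit, −1.21. CXCR5, the receptor that guides B cells into follicles, was at 10.11 to 11.45 in the ABC lines and at 5.05 to 10.43 in the GCB lines, where FARAGE and SU-DHL-4 (10.02) were high (difference 3.47, adjusted p = 0.477). CD274, which encodes the checkpoint ligand PD-L1, was at 8.24, 8.42, 6.53 and 5.04 in the ABC lines, at 7.56 in FARAGE and at 3.93 to 4.65 in the other GCB lines.

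Other members of smallest p were TAP2, which loads peptides for MHC class I (−1.06), CDKN1A, a CDK inhibitor (1.55), KMT2D, a histone methyltransferase (−1.01), and DUSP5, an ERK phosphatase (2.04), none of which passed. Of the genes tied to the drugs, GCLM, a subunit of glutathione synthesis, had −0.74. ABCB1, which exports doxorubicin and vincristine, had −0.20 and ALDH1A1, which inactivates the active form of cyclophosphamide, −0.13, and both were below 5 in all 12 lines. TOP2A, the target of doxorubicin, had −0.18 by its most variable probe-set and 0.18 by that of the highest mean.

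NU-DUL-1 and MC-116 were placed by the called genes, each on a scale from the GCB mean (0) to the ABC mean (1). Over the 9 called genes and unnamed probe-sets, 1 probe-set per gene, the median position was 0.02 for NU-DUL-1 and −0.07 for MC-116, and 0 of 9 were nearer to the ABC mean in either line. Over all 13 called probe-sets 1 was nearer to it in NU-DUL-1 and 0 in MC-116, and over the 50 genes of smallest p in each direction 16 and 10 of 100 were. The 1 was that of BCAS4, at 8.70 in NU-DUL-1, within the range of the ABC lines, and at 9.62 in MC-116. PLBD1 was at 4.53 and 4.25, STS at 8.34 and 9.57 and CYB5R2 at 4.31 and 4.21 in NU-DUL-1 and MC-116, inside the range of the GCB lines except for PLBD1 in MC-116, which was just below it. Placed in the same way by fits without them, the ABC lines had median positions of 0.66 (HBL-1), 0.71 (OCI-Ly3), 1.03 (RIVA) and 0.64 (U2932) and the GCB lines from −0.08 to 0.29, with FARAGE the highest. This gap closed with other sets of genes: over all called probe-sets FARAGE (0.44) reached OCI-Ly3 (0.43), and over the 50 genes of smallest p in each direction the ABC lines (0.28 to 0.50) overlapped with FARAGE (0.34) and NU-DHL-1 (0.31).

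**Figure D4:**
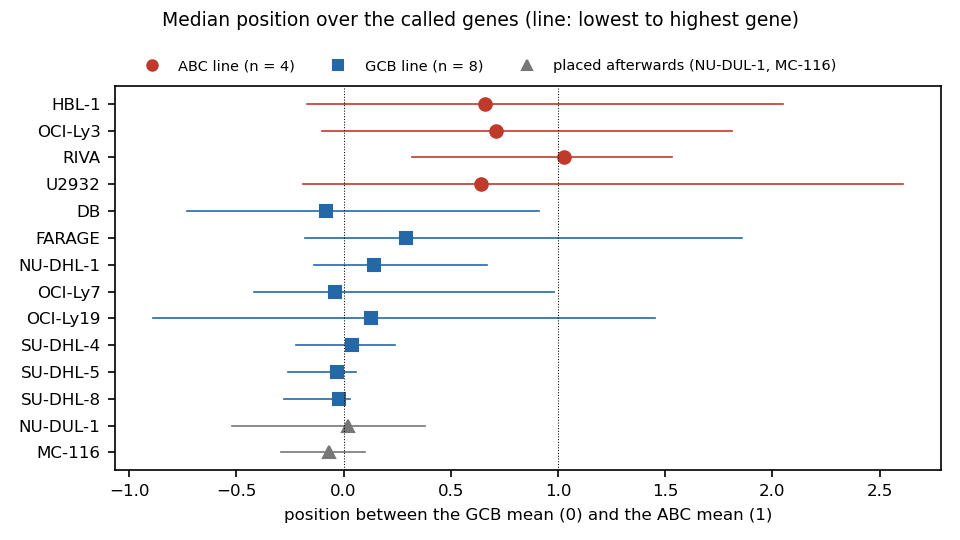
Median position of each line over the called genes, on a scale on which the mean of the GCB lines is 0 and that of the ABC lines is 1, with a line from the lowest to the highest gene. Each ABC and GCB line was placed by a fit without it, so the genes differ between lines, and NU-DUL-1 (0.02) and MC-116 (−0.07) lie within the range of the GCB lines.

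Single genes outside the called set gave NU-DUL-1 and MC-116 a mixed profile, while the mean of the activated B-cell list did not. That mean was 7.97 in NU-DUL-1 and 7.87 in MC-116, within the 6.7 to 8.58 of the GCB lines. NU-DUL-1 had IRF4 at 11.79 and CREB3L2 at 9.34, within the range of the ABC lines. BATF (7.57) and SPIB (8.08) were below that range in this line. Its MME and GCSAM levels of 9.76 and 9.51 were within the range of the GCB lines, and BCL6 was at 6.84. MC-116 had NFKBIA at 12.11, above all GCB lines, and BCL2A1 at 10.28, above all of them but FARAGE, and its mean over the NF-κB list was 8.78. Its BCL6 and GCSAM levels of 12.09 and 9.74 were those of a GCB line.

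The drug response is given as AUC0, the area under the part of a dose response curve above 0, which is high in resistant lines. It was read from the labels of each sample. Cyclophosphamide needs activation in the liver, so cells were given mafosfamide in its place. For cyclophosphamide HBL-1, OCI-Ly3, RIVA and U2932 had AUC0 values of 226, 262, 296 and 330, and the GCB lines ranged from 165 to 346 (median 258, n = 7). The ABC lines lay within the range of the GCB lines, and the difference of means was 32.1 (95% interval of the difference −46.3 to 110; exact permutation test, two-sided, p = 0.424, adjusted p = 0.636 over 3 drugs).

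For doxorubicin the ABC lines had AUC0 values of 272, 253, 327 and 295 and the GCB lines ranged from 167 to 325 (median 212, n = 8). All 4 ABC lines lay above 5 of the GCB lines, and DB (276), SU-DHL-4 (289) and OCI-Ly7 (325) were the GCB lines within the range of the ABC lines. The difference of means was 54.0 (95% interval −3.48 to 111; exact permutation test, two-sided, p = 0.113, adjusted p = 0.339). Without OCI-Ly7 it was 67.2 with an exact permutation p of 0.0424, unadjusted. With any other single line left out the exact permutation p was 0.0909 to 0.267, unadjusted, and without RIVA the difference was 40.6. Within the common source it was 63.2 with an exact permutation p of 0.143.

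For vincristine the ABC lines had AUC0 values of 85, 75, 109 and 85. The GCB lines fell on both sides of them, with 54, 56 and 58 in OCI-Ly19, FARAGE and SU-DHL-5 and 114, 126 and 131 in OCI-Ly7, SU-DHL-8 and DB. The means were 88.5 ± 14.5 (SD, n = 4) and 89.8 ± 37.5 (SD, n = 6), a difference of −1.33 (95% interval −41.5 to 38.8; exact permutation test, two-sided, p = 0.981, adjusted p = 0.981). The smallest p these tests could give was 0.00606, 0.00404 and 0.00952 for the 3 drugs.

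**Figure D5:**
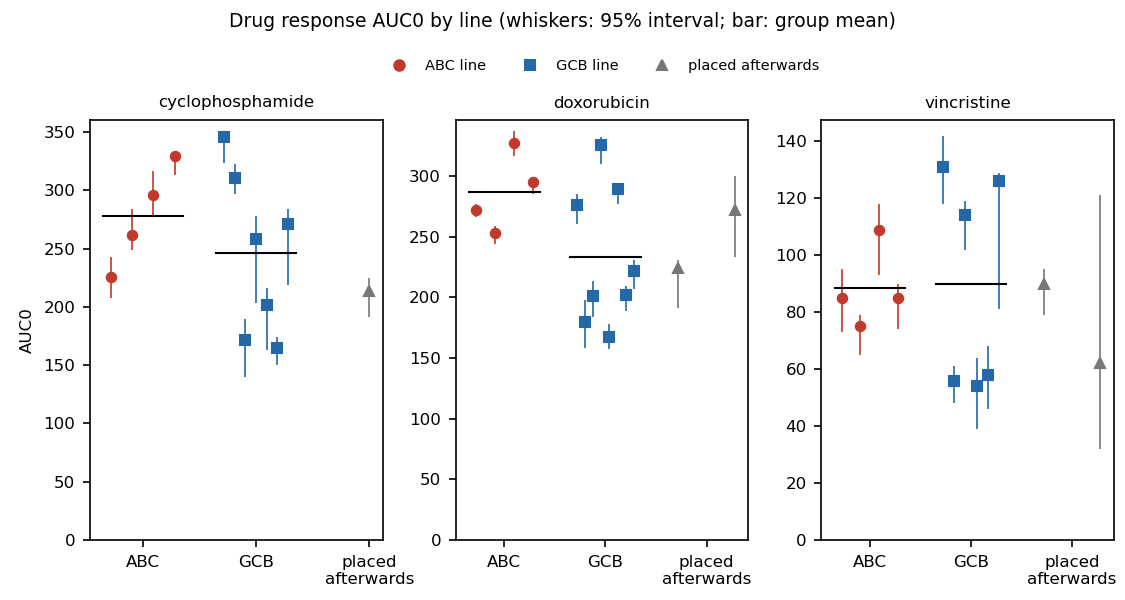
AUC0 of cyclophosphamide, doxorubicin and vincristine in each line, with ABC lines as circles, GCB lines as squares and the lines placed afterwards as triangles. Whiskers are the 95% intervals given in the labels and bars the group means, and the groups overlap for all 3 drugs.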

How the data were processed

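Per the labels and the methods, RNA of untreated cells was hybridised to Affymetrix HG-U133 Plus 2.0 arrays, and the authors deposited log2 values after RMA (affy, R 3.0.1), which corrects the background, normalises the arrays to each other and summarises each probe-set to 1 value. RMA compresses differences of dim genes. The methods describe RMA before the arrays were divided into DLBCL and MM sets. Scan batches are not given in the sources used here. The 62 control probe-sets of 54675 were left out. Of the other 54613, the platform annotation gives 41091 probe-sets 1 symbol, 1801 several and 11721 none. ABC and GCB lines were compared with limma 3.58.1 in R 4.3.3 (lmFit, eBayes), and AUC0 with exact permutation tests (scipy 1.17.1 in Python 3.11.15). Values after ± are SDs. The confidence interval of an AUC0 difference allows unequal variances. No further culture of a line was measured on an array, so p values measure the spread between lines. For AUC0 the paper lists several passages per line and drug, but each line entered the tests with 1 value.

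The lines, the 26 gene lists (524 entries, 34 of them without a named probe-set) and the tests were chosen with earlier results of these data known. Named genes are IRF4, MME, LMO2, BATF, all called genes (at most 12 in each direction), in each list without a call the member of smallest p, the anti-apoptotic BCL2 genes, ABCB1, TOP2A and ALDH1A1. Other genes (among them SPIB, CD83, BCL6, MYOCD and those of chromosome 18) were named after their values were seen. Alternatives were other probe-set choices, scalings, priors and call rules, the source of the lines and each line left out. Promoter sequences are from RefSeq.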

Additional observations from a re-analysis of the deposited data

Results flagged for a closer look

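A single line lay far from the rest of its group (Dixon's rule at 95%) in 17 of 148 groups of named genes and AUC0 values, where chance gives about 1 in 20, but 9 of the 17 are for genes that were named after their values were seen, so the number cannot be set against that rate. U2932 was the highest ABC line for LMO2 (8.78, next 5.32, by its representative probe-set), SERPINA9 (10.47, next 7.01) and LMAN1 (12.48, next 9.91), a cargo receptor of the secretory pathway. FARAGE was the highest GCB line for BATF (10.19, next 7.70), CD274 (7.56, next 4.65) and SLAMF7 (10.97, next 5.48) and the lowest for FOXP1 (3.95, next 9.60).

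OCI-Ly3 was the lowest ABC line for IGHM, the heavy chain of IgM, at 9.52 where the others were at 14.35 or more, and the highest for IL10RA (12.06, next 10.48). RIVA was the highest ABC line for CD8A, a T-cell gene (7.08, next 5.04). Among the GCB lines SU-DHL-4 was the lowest for BCL2L2 (5.73, next 7.32) and for CCNE1, a cyclin (8.20, next 8.89), OCI-Ly19 was the lowest for HLA-DMA, a chaperone of MHC class II (9.03, next 10.61), and the highest for PRDM1 (7.87, next 5.69) and MYOCD (4.55, next 3.68), NU-DHL-1 was the lowest for GCSAM (5.13, next 7.98), and OCI-Ly7 was the highest for SOCS3 (3.66, next 3.42). The differences of SOCS3 and MYOCD among GCB lines lie near the lowest values of the arrays.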

How the results depend on the processing

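The number of called probe-sets (13, with 9 higher and 4 lower) was the same within a factor of 1.5 with dim probe-sets left out, another prior, other scalings and a minimum log2 difference of 1, except as follows. With all 26 lines in the fit it was 74 (53 higher, 21 lower), with the source as a term 1 (1 higher, 0 lower), within 1 source 0, and with 1 probe-set per gene the lower genes numbered 1 (largest SD) or 2 (largest mean). Leaving out 1 line gave 4 to 27 calls, with 3 to 23 higher and 1 to 5 lower. Of 1552 values of 71 named genes 1480 kept direction and call, 35 lost and 27 gained a call, and 10 changed sign. These were uncalled: with the probe-set of the largest mean FN1, a matrix protein, (−0.15), TOP2A (0.18) and SOCS3 (−0.05), with the source as a term or within 1 source TOP2A (0.02) and SERPINA9 (0.24), and with 1 line left out TOP2A (−0.35 to 0.10, turned without HBL-1), BCL6 (−0.22 to 0.82, turned without SU-DHL-8) and HLA-DRA (−0.21 to 1.01, turned without FARAGE). For AUC0 the difference ranged over single lines left out from 14.9 to 49.6 for cyclophosphamide, from 40.6 to 67.2 for doxorubicin and from −8.50 to 6.90 for vincristine, where mean ranks gave 0 and 1 source 1. The median position of NU-DUL-1 was 0.07 and that of MC-116 −0.08 over all called probe-sets, and −0.02 and −0.04 over the 50 genes of smallest p in each direction, chosen after seeing the data, and 50 called genes in each direction did not exist. No paired analysis was possible because the replicate numbers are only names given in accession order. With 4 ABC lines, differences of dim genes and of genes that vary widely within a group may not be detected.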

Other observations

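Chromosome 18 had the highest share of genes with all ABC lines above all GCB lines, though not the highest number of genes that separated the groups. Of its 303 genes with a symbol 10 (3.30%) had all ABC lines above all GCB lines and 0 had them below, where the shares above on the other autosomes and X ran from 0% to 0.826%. A total of 42 had an unadjusted p under 0.05 on the higher side and 4 on the lower. The 10 were SETBP1, its neighbour SETBP1-DT, NARS1, FECH, LMAN1, PMAIP1, WDR7, IER3IP1, CABLES1 and SEC11C, and BCL2, with overlap, is on this chromosome too. NARS1, the asparaginyl-tRNA synthetase, was at 12.64, 12.79, 13.30 and 13.46 in HBL-1, OCI-Ly3, RIVA and U2932 and at 11.60 to 12.38 in the GCB lines. FECH, the last enzyme of haem synthesis, was at 8.70, 9.66, 9.90 and 10.32 and at 6.84 to 8.57. None of the 10 passed the test over all probe-sets, with adjusted p from 0.153 to 0.352.

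Over the 127 genes of chromosome 18 with a mean above the median level, the median deviation of a line from the mean of the 14 lines was 0.17 in HBL-1, 0.11 in OCI-Ly3, 0.64 in RIVA and 0.14 in U2932. It was −0.44 to 0.00 in 7 GCB lines and 0.25 in DB, so that DB lay with the ABC lines. Chromosome 19 had 113 genes at an unadjusted p under 0.05 on the higher side and 28 on the lower, of 1320. These chromosomes were singled out after their values were seen, no test was made, and DNA copy number was not analysed here.

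MYOCD, known as a coactivator in smooth and heart muscle, was at 9.63, 11.31 and 8.67 in HBL-1, OCI-Ly3 and RIVA but at 3.42 in U2932, the level of the GCB lines (3.35 to 4.55) and of the MM lines (mean 3.61). Its 2 probe-sets differed the same way. It was called without U2932 (log2 difference 6.20, adjusted p = 0.000527) and not with it (4.59, adjusted p = 0.324). None of the other fits that left out a line called it.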
